A study of Gallus gallus with 8 samples.

Results

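The reproducible regions on the chicken Z chromosome are the places on this sex chromosome where CUT&RUN of embryonic retina gave a peak at both digestion times of the same antibody. Overlapping peaks of 4 lists, 2 for Otx2 and 2 for Oc1, with digestion of 30 and 25 min each, were joined into 22266 regions when they shared at least 1 base. Those on Z with peaks at both times of Otx2 or at both times of Oc1 were kept, which gave 463 of the 9718 such regions in the genome. Peak presence thus chose the members, so their presence at both times is a description and no finding. On Z, 463 of 1103 joined regions (42.0%, Wilson 95% interval 39.1 to 44.9%) met the rule, beside 43.6% over all chromosomes.

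The study profiled dissociated wild-type chick retina of embryonic day 5, with 1 library for each antibody and digestion time. The groups used were Otx2 with digestion stopped at 30 min, Otx2 at 25 min, Oc1 at 30 min and Oc1 at 25 min. All 4 libraries came from wild-type retinal cells with no cell type sorted, so a peak can come from any of the cell types of the developing retina. Libraries for the histone mark H3K27me3 and for IgG were not analysed here. The sex of the embryos is not in the labels, so the number of Z copies per cell, set against paired chromosomes 4 and 5, is unknown.

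In CUT&RUN a nuclease is tethered through an antibody to the bound protein, cuts on both sides of it and frees short fragments for sequencing. Otx2 is a homeodomain factor needed for photoreceptor development. Oc1 (Onecut1) is a cut homeodomain factor known from horizontal cells and from the progenitors that form cones and horizontal cells, and in chick both factors act on an enhancer of the thyroid hormone receptor gene Thrb. In birds the male carries a pair of Z chromosomes and the female carries one Z and one W, and expression of Z genes is only partly equalised between the sexes. Chromosomes 4 and 5, which both sexes carry in pairs, served for comparison as an autosome longer and one shorter than Z.

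The 2 Otx2 lists held 9044 peaks at 30 min and 11495 at 25 min, of which 397 and 573 lay on Z. The 2 Oc1 lists held 10664 and 9777 peaks, of which 552 and 522 lay on Z. Peaks rested on few reads: in reproducible Z regions the median read number under a summit, recovered from the deposited fold and p, was 8 in each library. With 1 library per condition no difference between antibodies or times has a replicate check. Intervals below cover counting error over regions or peaks only. In dissociated whole tissue, binding in fewer cells and weaker binding in each cell cannot be told apart.

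Reproducible regions were sparser on Z than on chromosome 4 or 5. Since female cells carry a single Z, a lower copy number and a lower density of bound places per copy cannot be told apart in this and the later comparisons of peak number and background. There were 5.66 regions per Mb on Z (exact Poisson 95% interval 5.16 to 6.20), against 8.19 per Mb on chromosome 4 (7.61 to 8.80) and 10.6 per Mb on chromosome 5 (9.77 to 11.4). The length was taken from the first to the last peak of each chromosome, which was 81.8 Mb for Z, 91.1 Mb for chromosome 4 and 59.8 Mb for chromosome 5. The density on Z was 0.691 times that on chromosome 4 (95% interval 0.614 to 0.777) and 0.535 times that on chromosome 5 (0.474 to 0.604). Among the 32 sequences with reproducible regions, none was less dense than Z, and the next lowest was chromosome 1 with 7.01 regions per Mb. The 463 regions covered 217 kb of Z, or 2.65 kb per Mb, against 3.73 kb per Mb on chromosome 4 and 5.01 kb per Mb on chromosome 5.

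The lower density was present in each library before any rule on repetition was applied. Otx2 at 30 min had 4.85 peaks per Mb on Z, against 7.45 on chromosome 4 and 10.1 on chromosome 5. Otx2 at 25 min had 7.01 peaks per Mb on Z, against 9.67 on chromosome 4 and 12.3 on chromosome 5. For Oc1 at 30 min the values were 6.75 on Z, 9.40 on chromosome 4 and 11.1 on chromosome 5, and for Oc1 at 25 min they were 6.38, 8.58 and 10.2 in the same order of chromosomes. Z was thus the lowest of the 3 chromosomes in all 4 libraries. Averaged over the libraries, Z had 6.25 peaks per Mb, chromosome 4 had 8.78 and chromosome 5 had 10.9. The difference was -2.53 ± 0.22 peaks per Mb to chromosome 4 and -4.67 ± 0.72 to chromosome 5 (SD, n = 4 libraries). The exact sign-flip permutation test over the 4 libraries gave a two-sided p of 0.125 for each, the smallest that 4 libraries allow, and the 2 libraries of an antibody share their antibody and tissue.

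The size of the difference depended on how length was counted. With length counted only in 100 kb windows that hold a peak of any library, the density on Z was 0.910 times that on chromosome 4 (95% interval 0.808 to 1.02), an interval that includes equal densities, and 0.721 times that on chromosome 5 (0.638 to 0.814). This length is set by peaks of the same lists and shrinks where peaks are few, so it cannot decide whether densities are equal. Without the longest stretch between regions of each chromosome, a setting chosen after seeing the data, the ratios were 0.736 (0.654 to 0.827) and 0.560 (0.495 to 0.632).

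**Figure D1:**
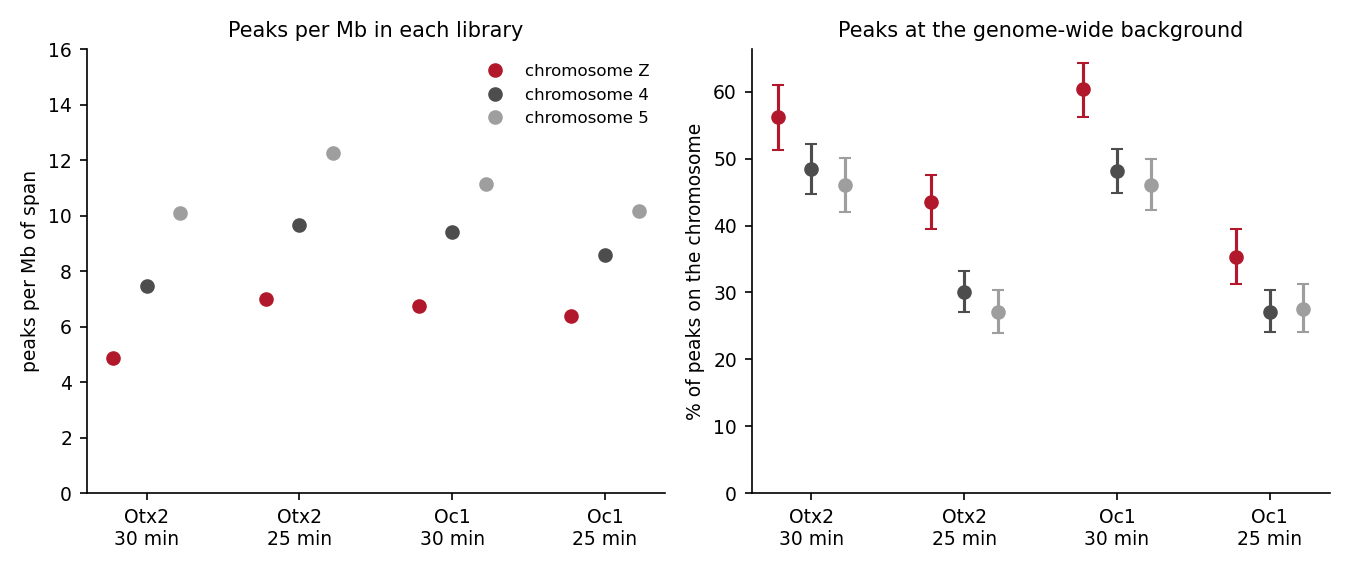
Left, peaks per Mb of span on chromosomes Z, 4 and 5 in each of the 4 libraries. Right, the percentage of peaks called against the genome-wide background, with Wilson 95% intervals. Z has the lowest peak density in every library (4.85 to 7.01 per Mb) and the highest share of peaks at the genome-wide background (35.2 to 60.3%).

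The background of the peaks, which the rule did not use directly, also differed in direction between Z and chromosomes 4 and 5. The peak caller compares the reads at a summit with the larger of a genome-wide and a local background. The reads and this larger background can be recovered from fold and p. Since the background enters the calling of peaks, it is not independent of which peaks the lists hold. On Z, 56.2% of peaks were called against the genome-wide background for Otx2 at 30 min, against 48.5% on chromosome 4 and 46.0% on chromosome 5. The shares for Otx2 at 25 min were 43.5% on Z, 30.1% on chromosome 4 and 27.05% on chromosome 5. For Oc1 at 30 min they were 60.3%, 48.1% and 46.1%, and for Oc1 at 25 min 35.2%, 27.1% and 27.5%, in the same order of chromosomes. The local background thus rose above the genome-wide one less often on Z in 4 of 4 libraries. The difference averaged 10.4 ± 2.9 percentage points to chromosome 4 and 12.1 ± 3.9 points to chromosome 5 (SD, n = 4), and the exact sign-flip permutation test gave p = 0.125 for each. Which control the caller used is not given in the sources used here, and libraries that share a control are not independent in this measure. At chrZ:79330591-79331383 the background was 1.09 times the genome-wide one for both antibodies at 30 min and 1.33 times at 25 min. At chrZ:974319-975622 it differed at 30 min, with 2.98 times for Otx2 and 9.92 times for Oc1. The 4 libraries therefore cannot be counted as 4 independent values of the background. Whether this background has a part in the lower number of peaks on Z was not tested.

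The share of Z peaks that repeated between times was close to that on chromosomes 4 and 5 in 3 libraries and lower than on chromosome 5 for Otx2 at 25 min. Of the Otx2 peaks on Z at 30 min, 71.8% (67.2 to 76.0%) lay in a region with Otx2 at both times, beside 67.6% on chromosome 4 and 71.2% on chromosome 5. For Otx2 at 25 min the share was 49.0% (45.0 to 53.1%) on Z, 51.1% (47.8 to 54.4%) on chromosome 4 and 57.2% (53.6 to 60.8%) on chromosome 5, whose interval did not overlap that of Z. Oc1 peaks on Z repeated in 58.0% (53.8 to 62.0%) at 30 min and in 62.1% (57.8 to 66.1%) at 25 min. The values for Oc1 were 56.1% at 30 min and 62.3% at 25 min on chromosome 4, and 58.1% and 64.3% on chromosome 5. Otx2 at 25 min was the longest of the 4 lists.

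The 463 regions fell into 5 classes by which libraries had a peak. The largest class, of 129 regions (27.9%, 24.0 to 32.1%), had peaks in every library. A further 46 (9.94%) had Otx2 at both times and Oc1 at 1 time, and 99 (21.4%, 17.9 to 25.3%) had Otx2 at both times without Oc1. Oc1 at both times with Otx2 at 1 time was found in 70 regions (15.1%), and Oc1 at both times with no Otx2 peak in 119 (25.7%, 21.9 to 29.9%). Which class was largest depended on the densest 1 Mb of Z, described below. Outside it, 103 of 410 regions (25.1%) had peaks in every library and 112 (27.3%) had Oc1 at both times with no Otx2 peak. Under the rule, 318 regions (68.7%, 64.3 to 72.7%) had Oc1 at both times and 274 (59.2%, 54.6 to 63.6%) had Otx2 at both times. This order follows the lists and does not show which factor is more frequent on Z. Single lists differed in order, with 397 Otx2 and 552 Oc1 peaks on Z at 30 min but 573 and 522 at 25 min.

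**Figure D2:**
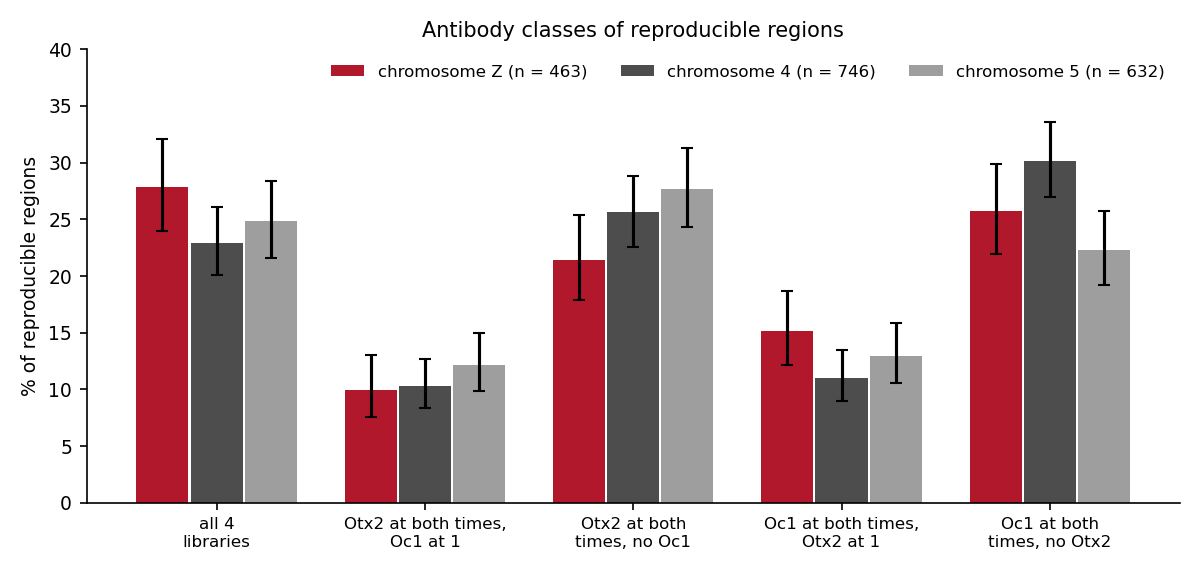
Percentage of the reproducible regions of chromosomes Z, 4 and 5 in each antibody class, with Wilson 95% intervals as error bars. On Z as a whole the class with peaks in all 4 libraries is the largest (27.9%). The largest is Oc1 at both times without Otx2 on chromosome 4 (30.2%) and Otx2 at both times without Oc1 on chromosome 5 (27.7%). Outside the densest 1 Mb of Z, Oc1 at both times without Otx2 is also the largest class on Z (27.3%, against 25.1% in all 4 libraries).

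Set against the autosomes, a larger share of the Z regions had Oc1 at both times than on chromosome 5. A smaller share had a single antibody than on chromosome 4. These are shares of each chromosome's own regions: Oc1 regions numbered 318 on Z and 380 on chromosome 5, and were sparser on Z. Oc1 at both times was found in 68.7% of Z regions, against 64.1% on chromosome 4 and 60.1% on chromosome 5. Over all regions of the genome the share was 62.1%, and chromosome 2 had 69.8%, more than Z. The difference was 4.61 percentage points to chromosome 4 (95% interval -0.90 to 9.97) and 8.56 points to chromosome 5 (2.81 to 14.2). Regions with peaks of 1 antibody only made up 47.1% on Z, against 55.8% on chromosome 4 and 50% on chromosome 5. The share over the genome was 51.2%, within the interval for Z (42.6 to 51.6%) and below the value of chromosome 4. The share on Z was 8.68 points lower than on chromosome 4 (interval of the difference -14.4 to -2.89). The difference of -2.92 points to chromosome 5 had an interval of -8.86 to 3.07. Without the densest 1 Mb of Z, described below, the share on Z was 49.8% (44.9 to 54.6%).

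Regions of all 4 libraries made up 27.9% on Z, 22.9% on chromosome 4 and 24.8% on chromosome 5. The difference of 4.94 points to chromosome 4 had an interval of -0.07 to 10.1, and that of 3.02 points to chromosome 5 one of -2.22 to 8.35. Over all 9718 regions of the genome the share was 23.7% (22.8 to 24.5%). Read as a share of each factor's own regions, 47.1% (41.3 to 53.0%) of the Otx2 regions on Z also had Oc1 at both times, against 39.0% (34.5 to 43.6%) on chromosome 4 and 38.4% (33.8 to 43.2%) on chromosome 5. The reverse share, of Oc1 regions with Otx2 at both times, was 40.6% (35.3 to 46.0%) on Z, 35.8% (31.6 to 40.2%) on chromosome 4 and 41.3% (36.5 to 46.3%) on chromosome 5. Over the genome the shares were 38.4% of Otx2 regions and 38.1% of Oc1 regions. On Z outside its densest 1 Mb they were 44.0% (37.8 to 50.4%) and 36.9% (31.5 to 42.7%), intervals that include the genome shares. Among the 24 chromosomes with at least 100 regions, Z ranked 3 in the share of regions with all 4 libraries, after chromosomes 15 (28.7%) and 9 (28.2%). Outside the densest 1 Mb of Z, described below, the share was 25.1% (21.2 to 29.5%). No test over libraries can be made for these classes, because a class is defined by the 4 libraries together.

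Where the other factor had a single peak, the time at which it was seen differed by factor. In the 70 Z regions with Oc1 at both times and Otx2 once, the Otx2 peak was from 30 min in 19 and from 25 min in 51. In the 46 regions with Otx2 at both times and Oc1 once, the Oc1 peak was from 30 min in 26 and from 25 min in 20. The 30 min list was the shorter one for Otx2 and the longer one for Oc1, and the part of list length in this split was not tested. On both chromosome 4 and chromosome 5 the lone Otx2 peak was from 30 min in 30 of 82 regions and from 25 min in 52.

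Fold enrichment in the Z regions was close to that on the autosomes in every library. Fold is the authors' value at the summit of a peak, and it was compared only within a list, using the strongest peak of a region. For Otx2 at 30 min the lowest, median and highest fold of the Z regions were 3.88, 6.42 and 22.6, beside medians of 6.39 on chromosome 4 and 6.75 on chromosome 5. At 25 min Otx2 had 2.92, 6.69 and 21.1 on Z, with a median of 6.69 on both autosomes. Oc1 at 30 min had 3.05, 6.68 and 25.9 on Z, again with a median of 6.68 on both autosomes, and Oc1 at 25 min had 3.30, 6.67 and 18.5, beside medians of 6.61 on chromosomes 4 and 5.

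The ratio of median folds averaged 1.003 ± 0.004 for Z over chromosome 4 and 0.990 ± 0.027 for Z over chromosome 5 (SD, n = 4 libraries). The exact sign-flip permutation test on the differences gave p = 0.5 and p = 1. Since peaks rest on small whole numbers of reads, folds take few values and medians often coincide. In Z regions 10 or more summit reads were found in 35.8% (30.6 to 41.5%) of the Otx2 peaks at 30 min and in 35.1% (30.1 to 40.4%) at 25 min, against 35.8% and 34.0% on chromosome 4. For Oc1 the shares on Z were 38.1% (33.1 to 43.3%) at 30 min and 36.1% (31.2 to 41.3%) at 25 min, against 42.2% (38.0 to 46.4%) and 39.1% (35.0 to 43.4%) on chromosome 4. Mean summit reads on Z were between 9.03 and 9.45 over the libraries, which was lower than on chromosome 4 in 3 of 4 libraries and lower than on chromosome 5 in 3 of 4.

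The strongest peaks of the genome were found on Z about as often as peaks in general. Z held 4.42% (3.26 to 5.96%) of the strongest 10% of Otx2 peaks at 30 min, beside 4.39% of that whole list. For Otx2 at 25 min it held 4.17% (3.16 to 5.49%) of the strongest 10% and 4.98% of the list. The strongest 10% of Oc1 peaks lay on Z in 4.69% (3.57 to 6.12%) at 30 min and in 4.6% (3.46 to 6.10%) at 25 min, beside 5.18% and 5.34% of the whole lists. Every whole-list share lay within the interval for its strongest 10%.

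**Figure D3:**
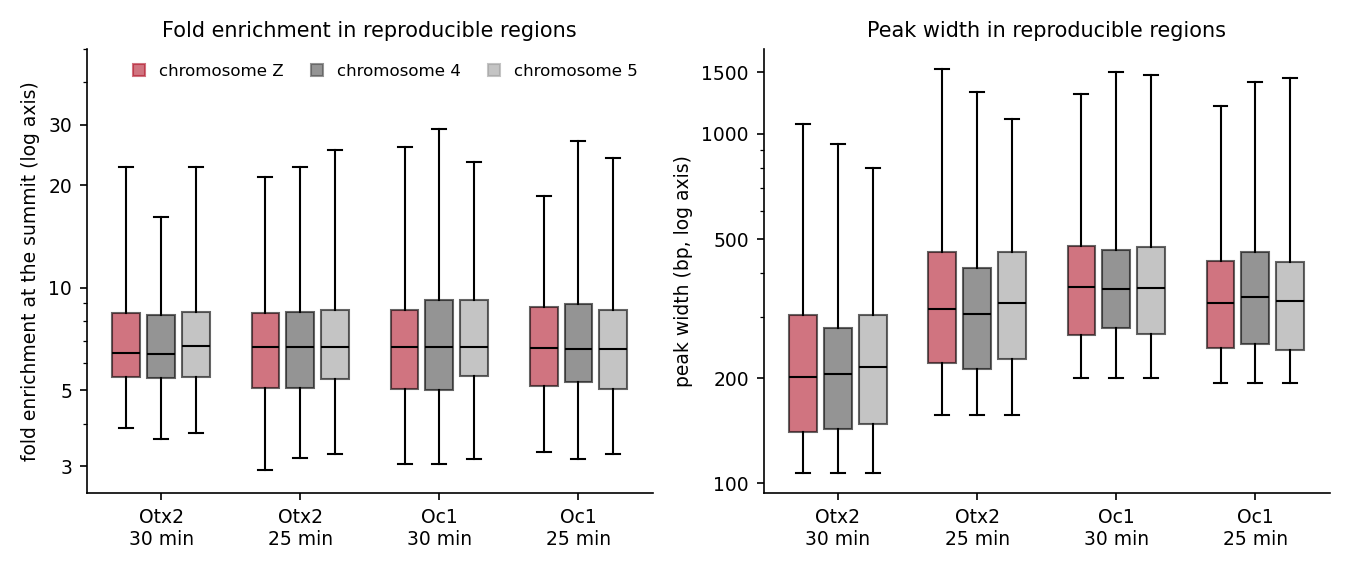
Fold enrichment at the summit (left, log axis) and peak width in bp (right, log axis) of the strongest peak of each reproducible region, by library and chromosome. Boxes span the quartiles with the median as a line, and whiskers reach the lowest and highest values; the boxes of Z, 4 and 5 overlap in every library, with median folds between 6.39 and 6.75.

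Widths were compared within a library as well, because the smallest width differs between lists. At 30 min the median Otx2 peak width in Z regions was 202 bp, against 205 bp on chromosome 4 and 215 bp on chromosome 5. For Otx2 at 25 min it was 315 bp on Z, 305 bp on chromosome 4 and 328 bp on chromosome 5. Oc1 peaks had medians of 364 bp on Z, 359 bp on chromosome 4 and 362 bp on chromosome 5 at 30 min, and of 329, 342 and 333 bp in the same order at 25 min. The direction to chromosome 4 was split over the libraries, and to chromosome 5 Z was narrower in 3 of 4. The ratio of medians was 0.998 ± 0.031 for Z over chromosome 4 and 0.973 ± 0.029 for Z over chromosome 5 (SD, n = 4), with exact sign-flip p = 1 and p = 0.25.

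Joined regions on Z ranged from 157 to 1560 bp with a median of 426 bp, beside 421 bp on chromosome 4 and 430 bp on chromosome 5. Regions of more libraries were wider, a comparison that joining itself affects. Z regions of all 4 libraries had a median joined width of 575 bp, those of Otx2 without Oc1 305 bp, and those of Oc1 without Otx2 394 bp. More than one peak of the same library was found in 22 Z regions (4.75%), beside 5.50% on chromosome 4 and 6.49% on chromosome 5.

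Fold also moved with class on Z. In the regions of all 4 libraries the median Otx2 fold was 7.49 at 30 min and 7.39 at 25 min, and the median Oc1 fold was 7.97 and 7.26. Regions of Otx2 without Oc1 had medians of 6.24 at 30 min and 5.85 at 25 min, and regions of Oc1 without Otx2 had 6.58 and 5.89. Regions of all 4 libraries thus had a higher median in each library than regions without the other factor. The same order was found on chromosomes 4 and 5. A class is set by which peaks passed the threshold of each list, so class and fold are not independent and this order is a description. Regions with Otx2 at both times and Oc1 once had Otx2 medians of 6.42 at 30 min and 7.57 at 25 min. Across the 274 Otx2 regions on Z, fold at 30 min and at 25 min had a Spearman's rho of 0.364, and across the 318 Oc1 regions rho was 0.441. The values for Otx2 and Oc1 were 0.405 and 0.470 on chromosome 4, and 0.398 and 0.418 on chromosome 5. Between Otx2 and Oc1 on Z, rho was 0.21 over 174 regions at 30 min and 0.165 over 200 regions at 25 min. These values describe regions that share libraries and are not replicates.

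The distance between summits of the 2 times is limited by the rule, since the peaks had to overlap, and is given as a description. The summits of Otx2 at 30 and 25 min were a median of 57.5 bp apart in 274 Z regions (quartiles 29.3 and 108 bp). Those of Oc1 were a median of 47 bp apart in 318 regions (quartiles 25 and 92 bp). On chromosome 4 the medians were 51 bp for Otx2 and 59.5 bp for Oc1, and on chromosome 5 they were 54 bp and 53 bp. The share of Oc1 regions with summits within 50 bp was 53.5% (48.0 to 58.9%) on Z, against 43.3% (38.9 to 47.8%) on chromosome 4 and 48.2% (43.2 to 53.2%) on chromosome 5. Otx2 had the reverse order to chromosome 4, with 45.6% (39.8 to 51.5%) on Z against 49.7% (45.0 to 54.3%).

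In the 129 regions of all 4 libraries, the Otx2 and Oc1 summits were a median of 70 bp apart at 30 min and 49 bp apart at 25 min. On chromosome 4 these medians were 74 and 68 bp, and on chromosome 5 they were 61 and 65 bp. The distance between factors at 25 min on Z was thus no larger than the 50 bp between the 2 times of Oc1 in the same regions. At 30 min it was larger than these 50 bp and than the 58 bp between the Otx2 summits of the 2 times. On chromosomes 4 and 5 the distance between factors was larger at both times than that between the 2 times of Oc1, which was 59 and 55 bp.

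Members were spread unevenly along Z. In the 16 full bins of 5 Mb the number of regions ran from 8 to 65 with a median of 21.5, while the 18 full bins of chromosome 4 held 23 to 63 (median 36) and the 11 full bins of chromosome 5 held 39 to 79 (median 46). The fullest bins of Z were the first, from 0 to 5 Mb, with 65 regions, the one from 35 to 40 Mb with 59, the one from 75 to 80 Mb with 47 and the one from 55 to 60 Mb with 42. The emptiest were 25 to 30 Mb with 8 regions and 40 to 45 Mb with 11. Coordinates are those of galGal5, the build that the submitters' processing notes name, counted from 1.

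**Figure D4:**
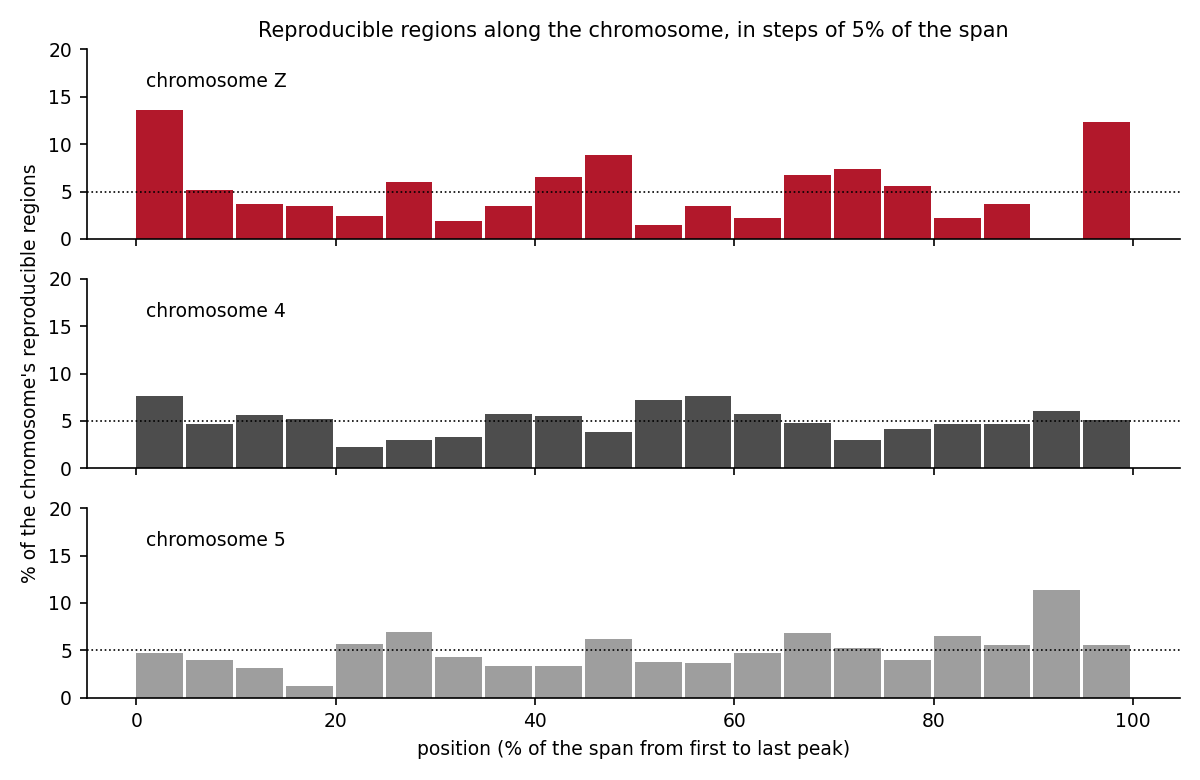
Reproducible regions of chromosomes Z, 4 and 5 in steps of 5% of the span from first to last peak, as a percentage of each chromosome's regions; the dotted line marks the 5% that even spacing would give. Z has its highest steps at both ends (13.6% and 12.3%) and no region in the step from 90 to 95%, while no step is empty on chromosomes 4 and 5.

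The mix of factors also varied along Z. Between 25 and 30 Mb, 7 of the 8 regions had Oc1 at both times and 1 had Otx2 at both times. Of those 8, 6 had Oc1 without any Otx2 peak, with folds between 5.67 and 12.5 at 30 min and between 6.67 and 10.6 at 25 min. Between 50 and 55 Mb the order was turned, with 14 of 17 regions having Otx2 at both times and 5 having Oc1 at both times. In the full 35 to 40 Mb bin, 24 of 59 regions had peaks in all 4 libraries. Bins with few regions give imprecise shares, and these bins were picked after their counts were seen.

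Long stretches without a region were more frequent on Z than on chromosomes 4 and 5, and were not counted on other chromosomes. Distances follow density, which is lower on Z. Neighbouring regions on Z were a median of 58.9 kb apart, against 49.9 kb on chromosome 4 and 32.0 kb on chromosome 5. Stretches of over 1 Mb between neighbours numbered 13 on Z and took up 26.5% of its span. Chromosome 4 had 4 such stretches (5.67% of its span) and chromosome 5 had 3 (7.10%). At short range Z as a whole was close to chromosome 4: 38.7% (34.3 to 43.2%) of Z regions had another within 10 kb, against 38.9% (35.4 to 42.4%) on chromosome 4 and 49.4% (45.5 to 53.3%) on chromosome 5. The densest 1 Mb of Z, described below, raised this share, with 84.9% (72.9 to 92.1%) of its 53 regions. Outside it the share on Z was 32.7% (28.3 to 37.4%). The densest windows of chromosomes 4 and 5 were not left out in the same way.

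The longest stretch spanned 6.15 Mb, from a region of Oc1 without Otx2 at chrZ:72947157-72947540 to a region of Otx2 without Oc1 at chrZ:79098190-79098385. It was the longest of any chromosome, and the next was 2.31 Mb on chromosome 2. The left region had folds of 5.01 at 30 min and 4.20 at 25 min, with 5 and 4 reads. The right one had folds of 7.77 and 4.22, with 9 and 4 reads. Within the stretch, the 4 lists together held 1 peak, of Otx2 at 30 min at chrZ:78722497-78722634, with a fold of 4.72 and 5 reads. How much of the stretch could be aligned to is not given in the sources used here. The 4 next longest stretches on Z, of 1.49 to 1.79 Mb, held between 3 and 14 peaks that did not repeat. They were shorter than the longest stretches of chromosomes 2 (2.31 Mb), 1 (2.19 Mb) and 5 (1.97 Mb).

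Directly beyond the longest stretch lay the densest part of Z. The 1 Mb at chrZ:79098190-80096353 held 53 regions, or 11.4% of all Z regions, against 24 in the densest 1 Mb of chromosome 4 and 37 in that of chromosome 5. Only the densest windows of chromosomes 26 (63 regions) and 23 (54) held more. Joined regions, with or without repetition, were also many: 94 in the window on Z, beside 39 in that of chromosome 4 and 69 in that of chromosome 5. The next densest on Z were chrZ:1873123-2867565 with 22 regions, chrZ:67100-983479 with 21 and chrZ:38006958-38722531 with 21. No reproducible region lay in the 1 Mb to either side of the densest window, where the 4 lists together had 1 joined region to the left and 3 to the right. Together with the first 5 Mb, this window held 118 regions, or 25.5% of those on Z.

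**Figure D5:**
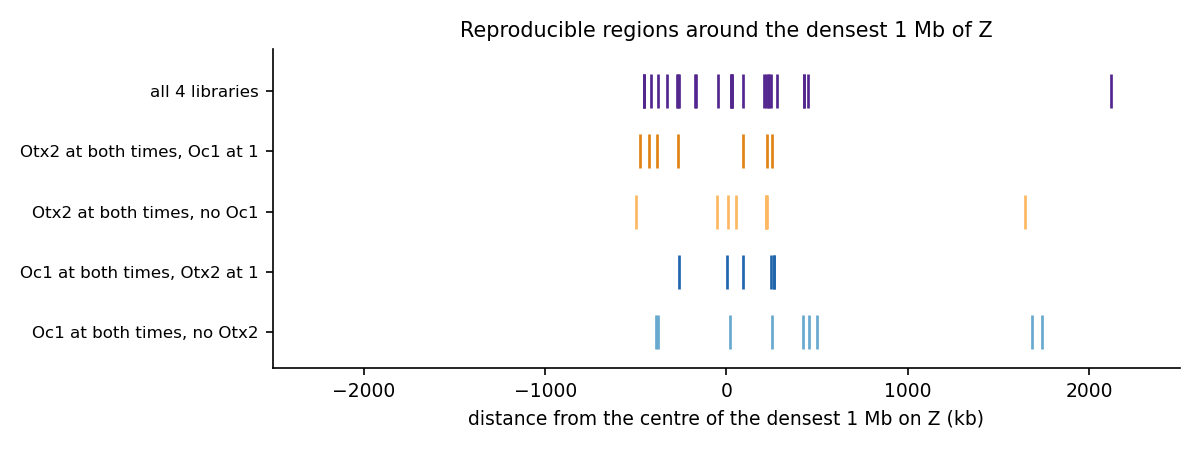
Each tick is a reproducible region within 2 Mb of the densest 1 Mb of Z, placed by its distance in kb from the window's centre, with 1 row for each antibody class. The 53 regions of the window, 26 of them with peaks in all 4 libraries, stand between flanks of 1 Mb without a reproducible region.

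Inside this window the 2 factors were found together more often than in the rest of Z, as in some other dense windows. Peaks in all 4 libraries were found in 26 of the 53 regions (49.1%, 36.1 to 62.1%), against 103 of the 410 others on Z (25.1%, 21.2 to 29.5%). Regions with a peak of each antibody made up 73.6% (60.4 to 83.6%) inside and 50.2% (45.4 to 55.1%) outside. Otx2 at both times was found in 75.5% (62.4 to 85.1%) inside, against 57.1% (52.2 to 61.8%) outside, whereas the intervals for Oc1 overlapped, with 73.6% (60.4 to 83.6%) against 68.0% (63.4 to 72.4%). Of the next densest windows of Z, the one at chrZ:38006958-38722531 had peaks in all 4 libraries in 10 of 21 regions (47.6%). The one at chrZ:67100-983479 had them in 38.1% and the one at chrZ:58219661-59011324 in 36.8%. The one at chrZ:1873123-2867565 had them in 31.8%. In the densest windows of chromosomes 9, 7 and 3 the share was 41.7%, 40.9% and 40%. These were the highest of other chromosomes, apart from M with its 1 region. The share was 35.1% on chromosome 5, 25% on chromosome 4, 22.2% on chromosome 26 and 0% on chromosome 1. A high share was thus not particular to the window, nor was it found in dense windows in general. The window was chosen for its number of regions, so that number is a description.

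Peaks of the window were also wider and rested on more reads, a comparison not split by class. Regions of all 4 libraries were more frequent inside. On Z as a whole they had a median of 10 summit reads in each library, against 7 in regions without the other factor. The median Otx2 width was 272 bp inside against 197 bp outside at 30 min, and 337 against 311 bp at 25 min. The median Oc1 width was 458 bp inside against 360 bp outside at 30 min, and 415 against 321 bp at 25 min. Median summit reads of Otx2 were 10 inside against 8 outside at 30 min, and 9 against 8 at 25 min. Those of Oc1 were 13 inside against 8 outside at 30 min, and 11 against 8 at 25 min. Both measures were higher inside the window in all 4 libraries. The local background was raised there as well, with a median of 1.29 and 3.39 times the genome-wide one for Otx2 at 30 and 25 min and of 1.29 and 2.75 times for Oc1. Outside, these medians were between 1.00 and 1.07. In the densest windows of chromosomes 4 and 5, taken the same way, the medians ran from 1.00 to 1.49. Raised medians were also found in other dense windows, such as 2.13 for Otx2 and 2.44 for Oc1 at 25 min at chrZ:58219661-59011324, 2.42 for Otx2 at 25 min at chrZ:38006958-38722531, and 2.44 and 2.66 for Oc1 at 25 min on chromosomes 2 and 3. The part of the raised background in the joint peaks was not tested.

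The strongest Z regions with all 4 libraries, ranked by the smallest −log10 q over the 4, lay near both ends of the chromosome. The first, chrZ:561310-562293, had folds of 14.1 and 15.2 for Otx2 at 30 and 25 min and of 12.2 and 16 for Oc1, with 16 to 19 summit reads. Its 4 summits fell within 561684 to 561741, so both factors and both times pointed to the same place. The second, chrZ:79330591-79331383 in the densest window, had folds of 13.8 and 12.9 for Otx2 and of 11.5 and 12 for Oc1.

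The third, chrZ:974319-975622, had folds of 12.3 and 12.9 for Otx2 and of 8.80 and 14.3 for Oc1, over a local background 2.98 to 9.92 times the genome-wide one. The fourth, chrZ:79550231-79551173, also in the densest window, combined folds of 8.50 and 7.39 for Otx2 with 25.9 and 7.16 for Oc1, and was the place of the highest Oc1 fold on Z at 30 min. The reads there were alike at 29, 34, 35 and 32, and the lone high fold stood over a background of 1.98 times the genome-wide one, while the other 3 libraries had 18.6 to 20.4 times. The fifth, chrZ:919575-920070, had folds of 10.8 and 12.7 for Otx2 and of 14.2 and 18.5 for Oc1. Of the 5, 3 thus lay within the first 1 Mb of Z and the others in the densest window. The fifth place was a tie, since chrZ:79183013-79183846 in the densest window had the same smallest −log10 q of 13.9. The next, chrZ:39233200-39234269 with 13.7, lay in the interior of Z.

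The strongest regions of Otx2 without Oc1 lay in the interior of Z. The one with the highest smallest −log10 q was chrZ:20796527-20796913, with folds of 11.96 at 30 min and 10.7 at 25 min and 16 and 12 reads. It borders 1 of the 5 longest stretches without a region. The second, chrZ:54772733-54774292, had folds of 10.1 and 14.4 and was the widest region on Z at 1560 bp. Its peak was 183 bp wide at 30 min and 1529 bp wide at 25 min, with the summits 770 bp apart, so the 2 times marked different places in it. The others were chrZ:70173067-70173523 (folds of 11.5 and 10.1), chrZ:8229489-8230035 (7.77 and 8.45) and chrZ:8669684-8670080 (7.77 and 10.04).

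Among regions of Oc1 without Otx2, the first was chrZ:81338211-81338705 near the end of the chromosome, with folds of 15.04 at 30 min and 12.5 at 25 min and 17 and 18 reads. The next were chrZ:38209445-38209853 (folds of 11.7 and 10.9), chrZ:56390301-56390855 (14.2 and 10.9), chrZ:46948821-46949242 (15.1 and 10.8) and chrZ:28272976-28273553 (12.5 and 10.6). All 5 had 12 or more reads at each time, and none lay in the densest window. The absence of a peak of the other factor means only that none passed the authors' threshold.

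Regions of a single factor were often far from the other. Of the 99 Z regions with Otx2 and no Oc1, 14 (14.1%, 8.61 to 22.3%) had a region with Oc1 at both times within 10 kb, against 16.2% (11.7 to 22.1%) on chromosome 4 and 29.7% (23.4 to 36.9%) on chromosome 5. Of the 119 with Oc1 and no Otx2, 17 (14.3%, 9.11 to 21.7%) had an Otx2 region that near, against 13.8% (9.88 to 18.9%) on chromosome 4 and 27.7% (20.9 to 35.6%) on chromosome 5. The median distance to the nearest region of the other factor was 84.0 kb for the Otx2 regions and 151 kb for the Oc1 regions on Z. It was 47.7 and 71.1 kb on chromosome 4 and 39.1 and 34.8 kb on chromosome 5. Distances follow density, which differs between these chromosomes.

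The first region on Z, chrZ:67100-67824, and the last, chrZ:81716782-81717141, both had peaks in all 4 libraries. The first had folds of 5.48 and 6.19 for Otx2 at 30 and 25 min and of 8.35 and 6.92 for Oc1. The last had 5.48 and 4.22 for Otx2 and 5.85 and 5.89 for Oc1, from 4 to 6 reads, and so stands for the many members that rest on few reads. Summit reads of 5 or fewer were found in 10.9% of the Otx2 peaks of Z regions at 30 min and 17.8% at 25 min, and in 19.2% and 18.0% of the Oc1 peaks.

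The edge of the rule was as follows. The members with the smallest overlap between times shared 10 bases, at chrZ:55668939-55669083 and 55669074-55669285 for Otx2 at 30 and 25 min, with folds of 4.72 and 5.07. The smallest for Oc1 was also 10 bases, in the region left of the longest stretch. Just outside, the closest Otx2 peaks that missed each other were 44 bases apart, with folds of 6.24 at 30 min and 4.31 at 25 min, and the closest Oc1 peaks 79 bases apart, with folds of 4.11 and 4.21. In 2 regions for Otx2 and 1 for Oc1 the peaks of both times met only through a peak of the other factor. The weakest repeated peaks had a −log10 q of 1.42 for Otx2 and 1.31 for Oc1. Requiring a −log10 q of 5 or more left 275 Z regions, and requiring 10 left 88, of which 13.6% had all 4 libraries.

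Genes and sequences at these regions are not reported, since no genome or annotation of galGal5 was at hand.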

How the data were processed

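Peak lists of 4 CUT&RUN libraries were analysed. The authors deposited a narrow-peak list of 10 columns for each. Its deposited values are start, end, a score, the fold enrichment at the summit (a ratio), −log10 of p and of q, and the summit's offset. In 100% of peaks the deposited score was −log10 q times 10 without its decimals. Bowtie2, SAMtools, deepTools and MACS2, without versions, and galGal5 are named in the submitters' processing notes; caller settings, the control and the treatment of duplicate reads are not given in the sources used here. Fold and −log10 q were used only within a list.

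Summit reads k and the background λ were recovered by seeking a whole k for which fold is (ck + 1)/(λ + 1) and p the chance that a Poisson count of mean λ exceeds ck, to within 0.002 in −log10 p. The scale c was 1 for 3 libraries and 0.845 for Otx2 at 30 min. This gave reads for 100% of Otx2 peaks and for 99.99% of Oc1 peaks. Read numbers are before scaling. A peak was counted at the genome-wide background, the most frequent λ of a list, when λ was at most 0.5% above it. Sequencing depth is unknown, so the read numbers at summits stand for precision.

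Peaks sharing at least 1 base were joined. Members and comparisons were chosen with earlier results of these data known. Shares carry Wilson 95% intervals, densities exact Poisson ones, ratios of densities exact binomial ones, and differences of shares the interval built from both Wilson limits. Values per library were compared between chromosomes with a two-sided exact sign-flip permutation test over 4 libraries. Named regions are the 5 strongest by the smallest −log10 q in each of 3 classes, those at the ends of Z, beside its longest stretch and in its densest 1 Mb window, the widest, and those at the edge of the rule. Python 3.11.15, pandas 2.3.3, NumPy 2.4.6 and SciPy 1.17.1 were used, and the joining and the recovery of reads were tested on simulated data. Alternatives were stricter overlap and −log10 q, 1 antibody only, other lengths, folds, widths and bins. Motifs and genes were not run, for want of a galGal5 genome.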

Additional observations from a re-analysis of the deposited data

Results flagged for a closer look

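Peaks were also found on W, the chromosome that only female birds carry and that no comparison above uses. The 4 lists together held 4 peaks there, of which 1 was an Otx2 peak at 25 min. The others were Oc1 peaks, 1 at 30 min and 2 at 25 min. Their folds were between 3.34 and 5.56, on 3 to 6 summit reads, and no W region repeated between times. Their −log10 q was between 1.73 and 4.89. Long lists called at a q threshold can hold some chance peaks, and whether these few peaks reflect signal on W was not tested.

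The median width of all peaks on Z against chromosome 4 went opposite ways for the 2 factors. Z minus chromosome 4 was 4 bp for Otx2 at 30 min and 2 bp at 25 min, and -5 bp for Oc1 at 30 min and -2 bp at 25 min. The difference between the factors was not tested and amounts to a few bases in medians of 176 to 315 bp.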

How the results depend on the processing

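Of 101 alternative values, 66 stayed within the interval, spread or range of the reported value and none turned a direction of density. The density of Z stayed below that of chromosome 4 (ratios of 0.632 to 0.910) and of chromosome 5 (0.480 to 0.721) in each of 13 alternatives. It was also below each of 30 numbered chromosomes taken alone. Values outside that margin were as follows, and the cause was not tested except where the cut itself removes peaks. With length from 100 kb windows the ratios were 0.910 and 0.721. The ratio to chromosome 5 was 0.611 with Oc1 regions only, 0.606 for all Oc1 peaks at 30 min and 0.628 at 25 min. The number of Z regions was 274 with Otx2 only, 275 at a −log10 q of at least 5 and 88 at 10. The reproducible share of joined Z regions was 31.7% with 50% overlap, 34.6% at a −log10 q of 10, 24.8% for Otx2, 28.8% for Oc1 and 47.8% with at least 6 summit reads. The share of all 4 libraries was 21.7% with 50% overlap, 20.4% at a −log10 q of 5 and 13.6% at 10, and that of Otx2 at both times 47.7%, 53.1% and 45.5%. Oc1 at both times was 74.0% with 50% overlap. The fold ratio to chromosome 4 was 0.968 at a −log10 q of 5, 1.013 at 10, 0.998 for Otx2 regions, 0.999 for all peaks, 0.992 without the densest 1 Mb and 0.988 with at least 6 reads. The width ratio to chromosome 4 was 1.08 at a −log10 q of 10 and 1.03 for Oc1 regions, and that to chromosome 5 1.012, 1.02 and, with at least 6 reads, 1.013, so that fold and width ratios lay on both sides of 1. The fullest bin held 20.5% of regions at a −log10 q of 10, 10.2% with bins of 2 Mb and 20.95% with bins of 10 Mb. The densest 1 Mb held 21.6% at a −log10 q of 10. The settings without the longest stretch, without the densest 1 Mb and with at least 6 reads were chosen after seeing the data. The mix was not recomputed for 1 antibody, which fixes it. No paired analysis was possible because each condition has 1 library and the labels give no replicate numbers shared by groups; the sign-flip tests pair chromosomes within a library. Few reads per peak limit what can be seen: a factor without a peak may have bound below the threshold.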
